A study of Mus musculus with 6 samples.

Results

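Sertoli cell genes are described here in the testes of 3 inbred mouse strains. A list of 35 genes known to mark Sertoli cells or to carry out their work was looked up in the platform annotation, and a probe set was used only where the annotation gave that gene alone. For each gene the probe set of highest mean over the 6 arrays was used, and its other probe sets served as a check. By this rule 32 of the 35 genes had a probe set, and 30 were bright enough to be tested, of 14461 genes tested among 18193 with a probe set. Rhox8, Trf and Defb36 had no probe set under the rule. The groups were untreated mice of the strains MRL/MpJ+/+ (MRL/MpJ below), AKR/N and C57BL/6, all 8 weeks old, with 2 mice and 2 arrays per strain and total RNA of the testis on each array. The series compares gene expression in the testis between the strains, with C57BL/6 taken here as the strain the others are set against.

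Sertoli cells are the somatic cells of the seminiferous tubule. They line its wall, enclose the germ cells at every stage, and join each other by tight, gap and adherens junctions that form the blood-testis barrier. Follicle-stimulating hormone and testosterone act on them. They answer with inhibin, activin, growth factors, binding proteins, proteases and protease inhibitors that reach the germ cells and the tubule fluid. In a whole testis they are outnumbered by germ cells, and in bulk RNA a lower signal from fewer Sertoli cells cannot be told apart from a lower signal through less RNA per cell.

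Each probe set has a linear intensity. The authors' scaling gave every array a trimmed mean of 125.001 units, and array medians were 28.0 to 30.7 units. Arrays of one strain correlated over probe sets at 0.979 to 0.985, against 0.967 to 0.979 for arrays of different strains. Differences are in log2(intensity + 16), where a dim gene's change appears smaller than it is, and were tested with limma over all 29692 probe sets that passed the filter on brightness. A gene was called where the adjusted p (Benjamini-Hochberg) was under 0.05. All 3 comparisons share arrays, since each strain stands in 2 of them. Of the 30 tested members, 29 lay above the 40th percentile on all 6 arrays, and Inhba on 5. Mro came close to that percentile, with a lowest value of 24.7 units. Fshr, Ocln and Sox9 were also dim, with lowest values of 31.7, 33.8 and 42.8 units. Clu, Ctsl, Cst9, Cst12, Aard and Defb19 had 1178 units or more on every array. Amh, the anti-Müllerian hormone of the immature Sertoli cell, was at 2.24 and 1.13 units in MRL/MpJ, 3.27 and 2.57 units in AKR/N, and 2.90 and 2.90 units in C57BL/6. Sox8, a partner of Sox9, was at 6.11 and 1.39 units in MRL/MpJ, 8.35 and 12.5 units in AKR/N, and 7.47 and 14.0 units in C57BL/6. Both genes lay below the 40th percentile of every array, which was 17.8 to 20.8 units, and were not tested.

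In MRL/MpJ testes Serpina5 and Inha were higher, and Cdh2 and Mro lower, than in C57BL/6 testes. Among the 30 tested Sertoli genes these were 2 called higher, where 6.10% of all tested genes were called higher, and 2 called lower, where the background was 6.12%. In AKR/N against C57BL/6, 7 genes were called higher, against a background of 6.39%: Serpina5, Gja1, Aard, Wt1, Rhox5, Defb19 and Ctsl. By limma 0 were called lower, where 5.50% of all genes were; at an unadjusted p under 0.05, 12 were higher and 3 lower. Between MRL/MpJ and AKR/N, 2 genes were called higher in MRL/MpJ (background 3.68%), Serpina5 and Inhba. A further 6 were called lower in MRL/MpJ (background 5.07%): Cdh2, Rhox5, Gja1, Aard, Ctsl and Defb19. The F test over the 3 strains called 10 of the 30 genes, where it called 18.4% of all genes.

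**Figure D1:**
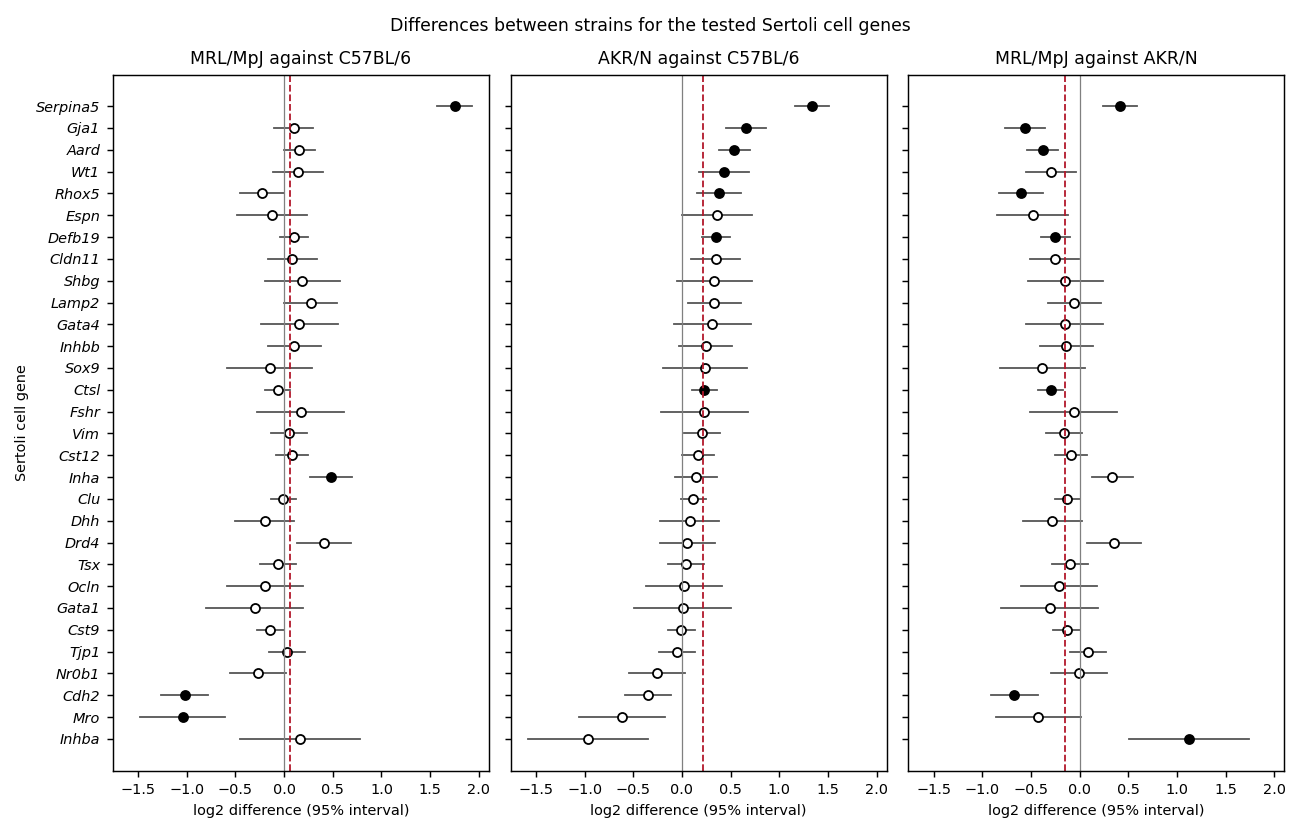
Log2 difference (x axis) of each of the 30 tested Sertoli cell genes (rows, ordered by AKR/N against C57BL/6) in the 3 comparisons, with 95% intervals as bars; filled points were called at adjusted p under 0.05 and the dashed line is the median of the 30. In the middle panel 24 of 30 points lie above 0, and Serpina5 stands highest in both comparisons with C57BL/6.

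The median difference of the 30 genes was 0.06 in MRL/MpJ against C57BL/6, with 17 above 0 and 13 below. It was 0.22 in AKR/N against C57BL/6, with 24 above and 6 below, and -0.16 in MRL/MpJ against AKR/N, with 5 above and 25 below. Over all tested genes each of the 3 medians was 0.01. Set against each gene's mean over the 6 arrays, the median Sertoli gene deviated by -0.04 and -0.06 on the MRL/MpJ arrays, 0.15 and 0.11 on the AKR/N arrays, and -0.06 and -0.03 on the C57BL/6 arrays. Both AKR/N arrays thus stood above all 4 others. Without C57BL/6 replicate 1 the AKR/N median against C57BL/6 was 0.10, and that of MRL/MpJ against C57BL/6 was -0.02, while it was 0.01 or 0.02 with MRL/MpJ replicate 1 or 2 left out. The counts of calls rested on single arrays too. AKR/N against C57BL/6 gave 4 calls with AKR/N replicate 1 left out and 3 with replicate 2 left out, and MRL/MpJ against C57BL/6 gave 2 without MRL/MpJ replicate 1. MRL/MpJ against AKR/N gave 4 and 2 calls without MRL/MpJ replicates 1 and 2, and 3 and 2 without AKR/N replicates 1 and 2. The F test gave 6 without AKR/N replicate 2.

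Sequences next to a start of 3 called genes are given so that they can be read beside the values. They are the 250 bases before a RefSeq start on GRCm38.p6, a C57BL/6J reference, 5′ to 3′ on the plus strand. For Gja1 and Rhox5 that start is the outer end of the annotated gene, while for Serpina5 it lies inside the annotated span, so the bases shown are not upstream of all of its transcripts. Capitals mark 1 match per gene, found by searching both strands for 4 motifs. These were AGGTCA, which nuclear receptors such as the Nr5a1 product bind. The next was AGAACA, a part of the element that androgen receptor binds. The others were TGACGTCA, the cyclic AMP response element, and AGATAA, bound by the family of zinc finger factors that Gata1 and Gata4 belong to.
Serpina5: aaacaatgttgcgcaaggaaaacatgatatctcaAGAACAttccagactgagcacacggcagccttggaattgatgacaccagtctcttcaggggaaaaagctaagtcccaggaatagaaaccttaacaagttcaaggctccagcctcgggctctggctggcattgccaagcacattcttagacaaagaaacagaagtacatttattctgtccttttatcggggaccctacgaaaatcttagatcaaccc
Gja1: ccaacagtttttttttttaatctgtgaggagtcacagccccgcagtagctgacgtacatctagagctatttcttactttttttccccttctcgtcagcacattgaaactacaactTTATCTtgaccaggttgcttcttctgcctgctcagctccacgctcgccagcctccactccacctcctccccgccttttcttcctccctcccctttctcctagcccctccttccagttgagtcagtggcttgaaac
Rhox5: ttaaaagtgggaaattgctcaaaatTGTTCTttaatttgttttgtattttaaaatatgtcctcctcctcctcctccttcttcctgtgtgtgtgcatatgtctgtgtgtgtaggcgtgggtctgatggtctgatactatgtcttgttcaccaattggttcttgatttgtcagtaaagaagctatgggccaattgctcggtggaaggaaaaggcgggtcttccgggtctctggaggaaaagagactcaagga
The Serpina5 sequence is chr12:104100863-104101112, with AGAACA at bases 216 to 211 before the start. That of Gja1 is chr10:56377050-56377299, with AGATAA on the other strand (TTATCT as printed) at bases 135 to 130. That of Rhox5 is chrX:37754358-37754607, with AGAACA on the other strand (TGTTCT as printed) at bases 225 to 220. Of the 24 members with a sequence in the table, 13 had it before the outer start and 11 before a start inside the gene. Among the 24, AGGTCA was found in 4, AGAACA in 5, TGACGTCA in 0 and AGATAA in 2. Over 32851 such stretches of the same length the shares were 14.0%, 16.1%, 1.55% and 9.99%. A match is a description of the letters and not a bound site, and none of the matches shown overlaps another. The called genes Ctsl, Inha and Inhba also had a sequence, before a start inside the gene, which is not printed. Ctsl and Inhba held none of the 4 motifs, and Inha held AGGTCA. The called genes Aard, Cdh2, Defb19, Mro and Wt1 had no entry in that table.

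Among secreted proteins, Serpina5 differed most. It encodes the protein C inhibitor, a serine protease inhibitor whose loss makes male mice infertile. It was at 1181 and 1113 units in MRL/MpJ, 816 and 902 units in AKR/N, and 333 and 326 units in C57BL/6. No array of one strain overlapped with an array of another. MRL/MpJ stood above C57BL/6 by 1.75 (SE 0.0794, adjusted p = 4.26e-07), a ratio of 3.37 on the log2(intensity + 16) scale. AKR/N stood above C57BL/6 by 1.34 (adjusted p = 2.74e-06), a ratio of 2.53. These 2 calls held in all alternatives run. MRL/MpJ stood above AKR/N by 0.41 (adjusted p = 0.0116). The last call was lost without MRL/MpJ replicate 1 (adjusted p = 0.0975), MRL/MpJ replicate 2 (adjusted p = 0.0514) or AKR/N replicate 1 (adjusted p = 0.111).

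Ctsl, the lysosomal protease cathepsin L that Sertoli cells also secrete, was at 2465 and 2436 units in MRL/MpJ, 2978 and 3056 units in AKR/N, and 2539 and 2596 units in C57BL/6. AKR/N was the high strain, above C57BL/6 by 0.23 (SE 0.0576, adjusted p = 0.029), and MRL/MpJ lay below AKR/N by -0.30 (adjusted p = 0.0117). The AKR/N call against C57BL/6 was lost without any one of the 4 arrays compared, at adjusted p of 0.0911 (without C57BL/6 replicate 2) to 0.188 (without AKR/N replicate 2). The MRL/MpJ call against AKR/N was likewise lost without any one of its 4 arrays (adjusted p of 0.0557 without MRL/MpJ replicate 1 to 0.118 without AKR/N replicate 2). Defb19, a beta-defensin of the testis, was at 1535 and 1436 units in MRL/MpJ, 1740 and 1800 units in AKR/N, and 1365 and 1405 units in C57BL/6. Here too both AKR/N arrays stood above the other 4. Its difference was 0.35 in AKR/N against C57BL/6 (SE 0.066, adjusted p = 0.00731, and 0.0771 without AKR/N replicate 2). In MRL/MpJ against AKR/N it was -0.25 (adjusted p = 0.0471), a call lost without any one of the 6 arrays (adjusted p of 0.0539 to 0.267).

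The remaining secreted or lysosomal products were not called. Clu, the chaperone clusterin, was at 3683 and 3633 units in MRL/MpJ, 3865 and 4129 units in AKR/N, and 3652 and 3719 units in C57BL/6. Its AKR/N difference from C57BL/6 was 0.12 with a 95% interval of -0.01 to 0.24. The other 3 Clu probe sets gave 0.15, -0.04 and -0.02 in that comparison, and none was called. The cystatins Cst9 (testatin) and Cst12, relatives of inhibitors of cysteine proteases, differed by -0.14 and 0.08 in MRL/MpJ against C57BL/6 and by 0.00 and 0.17 in AKR/N against C57BL/6. Shbg, the androgen-binding protein, was dim, at 44.9 to 69.5 units over the 6 arrays, and differed by 0.33 in AKR/N against C57BL/6 (adjusted p = 0.283). Lamp2, a membrane protein of the lysosome, depended on the probe set. The one used differed by 0.27 (adjusted p = 0.204) in MRL/MpJ and 0.33 (adjusted p = 0.127) in AKR/N against C57BL/6. Of the other 3, one was called in both, at 0.58 (adjusted p = 0.00386) and 0.76 (adjusted p = 0.000709), and one in neither, at 0.20 and 0.17. The last gave 0.63 in MRL/MpJ (adjusted p = 0.0481) but -0.04 in AKR/N (adjusted p = 0.928) against C57BL/6, and was called in MRL/MpJ against AKR/N at 0.67 (adjusted p = 0.048).

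**Figure D2:**
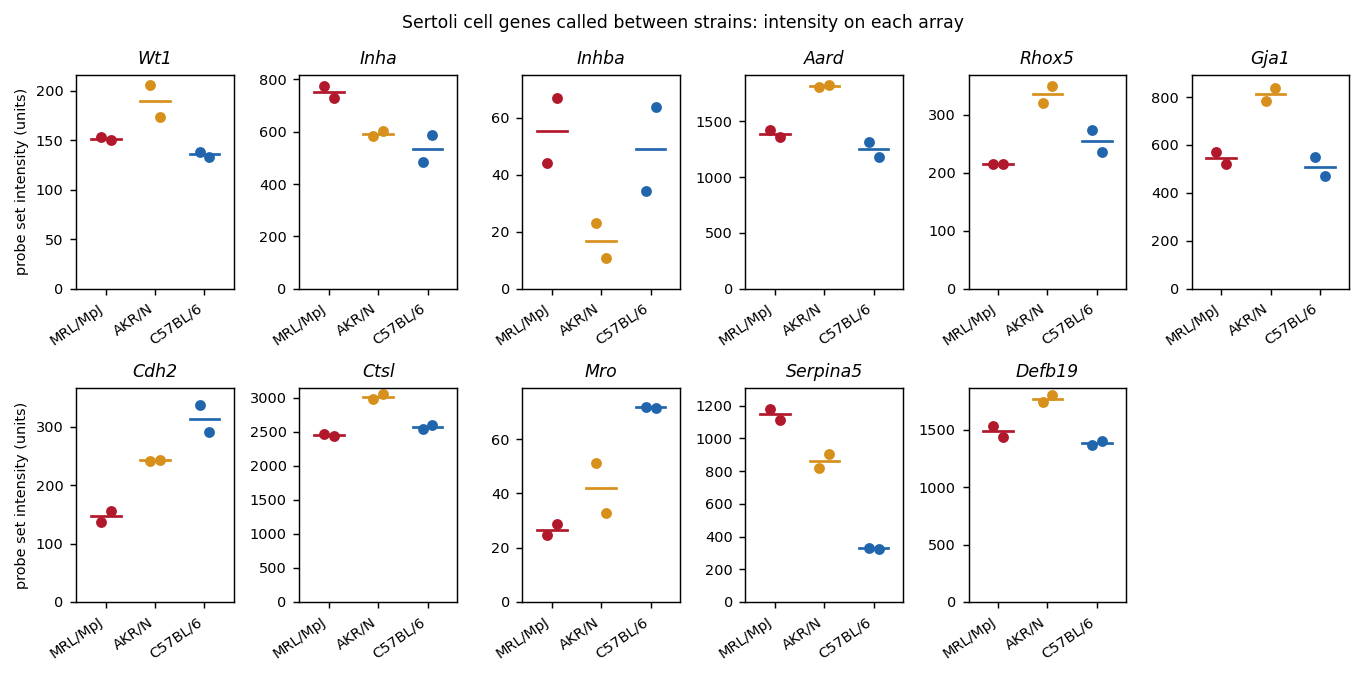
Intensity in units (y axis, from 0) on each of the 2 arrays per strain, for the 11 Sertoli cell genes called in at least 1 pairwise comparison; the horizontal lines are strain means. Serpina5 is high in MRL/MpJ and AKR/N, Cdh2 and Mro are highest in C57BL/6, and Gja1, Aard, Rhox5, Ctsl and Defb19 are highest in AKR/N.

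Among transcription factors, Wt1 and Rhox5 were called. Wt1, a zinc finger factor needed to form and keep Sertoli cells, was at 153 and 150 units in MRL/MpJ, 205 and 173 units in AKR/N, and 138 and 133 units in C57BL/6. AKR/N stood above C57BL/6 without overlap, by 0.43 (SE 0.116, adjusted p = 0.0397). The call was lost without any one of the 6 arrays, at adjusted p of 0.0602 (without MRL/MpJ replicate 2) to 0.264 (without AKR/N replicate 1), and the F test did not call Wt1 (adjusted p = 0.0611). Rhox5, an X-linked homeobox gene that androgen switches on in Sertoli cells, was at 215 and 215 units in MRL/MpJ, 321 and 349 units in AKR/N, and 273 and 236 units in C57BL/6. The strains did not overlap, with AKR/N highest and MRL/MpJ lowest. Rhox5 was lower in MRL/MpJ than in AKR/N by -0.60 (SE 0.102, adjusted p = 0.00607, and 0.0747 without AKR/N replicate 2). It was higher in AKR/N than in C57BL/6 by 0.38 (adjusted p = 0.043), a call lost without any one array but C57BL/6 replicate 1 (adjusted p of 0.0636 without MRL/MpJ replicate 2 to 0.241 without AKR/N replicate 2).

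Sox9, the factor that starts Sertoli cell fate, was at 54.4 and 42.8 units in MRL/MpJ, 59.5 and 77.6 units in AKR/N, and 45.7 and 66.5 units in C57BL/6. Its AKR/N and C57BL/6 arrays overlapped, and the difference was 0.24 with an interval of -0.20 to 0.67. In its second tested probe set AKR/N stood above C57BL/6 without overlap, by 0.45 (adjusted p = 0.246). That probe set gave -0.68 in MRL/MpJ against AKR/N (adjusted p = 0.101), and neither difference was called. Gata4, which acts with Sox9 and Wt1 in gonad formation, differed by 0.16 in MRL/MpJ and 0.31 in AKR/N against C57BL/6 (adjusted p = 0.647 and 0.327), and its second probe set by -0.40 and -0.13. Gata1, found in Sertoli cells of particular tubule stages, ranged from 70.3 to 147 units, and the arrays of the 3 strains overlapped (differences of -0.30 in MRL/MpJ and 0.01 in AKR/N against C57BL/6). Nr0b1, the nuclear receptor DAX1, was at 119 and 102 units in MRL/MpJ, 103 and 120 units in AKR/N, and 131 and 140 units in C57BL/6. Both strains lay below C57BL/6 without overlap, yet the differences of -0.26 and -0.25 were not called (adjusted p = 0.246 and 0.274).

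Of the hormone genes, Inha and Inhba were each called in 1 pairwise comparison and Inhbb in none. Inhibin restrains the pituitary's release of follicle-stimulating hormone and is built from an alpha subunit and a beta subunit, while activin joins beta subunits only. Inha, the alpha subunit, was at 775 and 729 units in MRL/MpJ, 583 and 601 units in AKR/N, and 483 and 588 units in C57BL/6. MRL/MpJ stood above the other 4 arrays, and AKR/N and C57BL/6 overlapped. MRL/MpJ was higher than C57BL/6 by 0.48 (SE 0.0963, adjusted p = 0.0098), a call lost on leaving out MRL/MpJ replicate 1 (adjusted p = 0.0807) or C57BL/6 replicate 1 (adjusted p = 0.0542). Its difference from AKR/N was 0.34 (adjusted p = 0.0661).

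Inhba, the beta A subunit, was dim, at 44.1 and 66.7 units in MRL/MpJ, 22.9 and 10.9 units in AKR/N, and 34.1 and 63.7 units in C57BL/6. Both AKR/N arrays were below the other 4, and MRL/MpJ and C57BL/6 overlapped. MRL/MpJ stood above AKR/N by 1.13 (SE 0.279, adjusted p = 0.0371), a call lost without any one of the 4 arrays compared (adjusted p of 0.0573 without AKR/N replicate 1 to 0.245 without MRL/MpJ replicate 2). AKR/N against C57BL/6 gave -0.97 (adjusted p = 0.0536). Inhbb, the beta B subunit, was at 172 and 175 units in MRL/MpJ, 204 and 181 units in AKR/N, and 144 and 179 units in C57BL/6, and was not called. Fshr, the receptor through which follicle-stimulating hormone acts, was at 31.7 to 52.7 units, with differences of 0.17 in MRL/MpJ and 0.23 in AKR/N against C57BL/6 and intervals reaching from -0.28 to 0.62 and from -0.22 to 0.68. Dhh, the desert hedgehog ligand that Sertoli cells send to Leydig and peritubular cells, differed by -0.20 and 0.08 (adjusted p = 0.415 and 0.783). Its second probe set had the opposite sign in each comparison and was not called, at 0.65 and -0.02 against C57BL/6 and 0.68 in MRL/MpJ against AKR/N.

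Junction genes went in different directions. Gja1 encodes connexin 43, the main gap junction protein between Sertoli cells and between them and germ cells. It was at 571 and 521 units in MRL/MpJ, 785 and 839 units in AKR/N, and 548 and 472 units in C57BL/6. AKR/N stood above both other strains, which overlapped with each other. The difference was 0.66 in AKR/N against C57BL/6 (SE 0.0924, adjusted p = 0.0013, or 0.0536 if no variance trend was fitted) and -0.56 in MRL/MpJ against AKR/N (adjusted p = 0.0052). Between MRL/MpJ and AKR/N the call was lost without MRL/MpJ replicate 2 (adjusted p = 0.0554) or AKR/N replicate 2 (adjusted p = 0.0649). All 6 Gja1 probe sets gave a positive difference in AKR/N against C57BL/6, between 0.12 and 0.75, and 4 of the 6 were called.

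Cdh2, the adhesion molecule N-cadherin that joins Sertoli cells to each other and to germ cells, was at 138 and 155 units in MRL/MpJ, 241 and 243 units in AKR/N, and 337 and 291 units in C57BL/6. The 3 strains did not overlap. MRL/MpJ was below C57BL/6 by -1.02 (SE 0.108, adjusted p = 0.00019), a ratio of 0.49, and below AKR/N by -0.67 (adjusted p = 0.00458). The first of these calls held in all alternatives run. AKR/N differed from C57BL/6 by -0.35 (adjusted p = 0.0716). The second Cdh2 probe set gave -0.98 in MRL/MpJ against C57BL/6, -0.09 in AKR/N against C57BL/6 and -0.89 in MRL/MpJ against AKR/N, and was called in the comparisons with MRL/MpJ (adjusted p = 0.000551 against C57BL/6 and 0.00165 against AKR/N).

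The tight junction genes were not called. Cldn11, the claudin that seals the barrier, was at 308 and 260 units in MRL/MpJ, 367 and 318 units in AKR/N, and 283 and 249 units in C57BL/6. Both AKR/N arrays were above the others, with a difference from C57BL/6 of 0.35 (interval 0.09 to 0.60, adjusted p = 0.0923). Ocln, occludin, differed by -0.19 in MRL/MpJ and 0.02 in AKR/N against C57BL/6. Tjp1, the scaffold protein ZO-1, differed by 0.03 and -0.05. Its 95% intervals were -0.15 to 0.22 and -0.24 to 0.13. Espn, which bundles actin at the ectoplasmic specialisation, was at 163 and 152 units in MRL/MpJ, 241 and 213 units in AKR/N, and 139 and 214 units in C57BL/6. The C57BL/6 arrays lay apart, and leaving out either one gave an Espn call in MRL/MpJ against AKR/N, where the difference was -0.48 with all arrays (adjusted p = 0.115). Without C57BL/6 replicate 2 it was called in AKR/N against C57BL/6 too, where the difference with all arrays was 0.36 (adjusted p = 0.209). Vim, the intermediate filament of Sertoli cells and other somatic cells, differed by 0.05 in MRL/MpJ and 0.21 in AKR/N against C57BL/6. The other 2 Vim probe sets gave -0.0009 and -0.06 in MRL/MpJ, and 0.02 and 0.10 in AKR/N.

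Of the members whose part in the Sertoli cell is less well known, Aard and Mro were called. Aard, named for its alanine- and arginine-rich domain, was at 1420 and 1364 units in MRL/MpJ, 1814 and 1824 units in AKR/N, and 1319 and 1178 units in C57BL/6. The strains did not overlap, with AKR/N highest. AKR/N stood above C57BL/6 by 0.54 (SE 0.0719, adjusted p = 0.000908, or 0.062 if no variance trend was fitted) and MRL/MpJ below AKR/N by -0.38 (adjusted p = 0.0102). Between MRL/MpJ and AKR/N the call was lost without MRL/MpJ replicate 2 (adjusted p = 0.079), AKR/N replicate 1 (adjusted p = 0.0727) or AKR/N replicate 2 (adjusted p = 0.0887).

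Mro, maestro, a gene with male-specific expression in the forming mouse gonad, was at 24.7 and 28.6 units in MRL/MpJ, 51.2 and 32.7 units in AKR/N, and 71.8 and 71.6 units in C57BL/6. C57BL/6 was the high strain, and no strains overlapped. MRL/MpJ was below C57BL/6 by -1.04 (SE 0.198, adjusted p = 0.00761, and 0.0547 without MRL/MpJ replicate 1). AKR/N differed from C57BL/6 by -0.62 (adjusted p = 0.0809). Drd4, a dopamine receptor, was at 179 and 151 units in MRL/MpJ, 135 and 117 units in AKR/N, and 121 and 120 units in C57BL/6. Its difference of 0.41 in MRL/MpJ against C57BL/6 was not called (adjusted p = 0.0691), and its second probe set gave 0.02. Tsx, an X-linked gene of the testis, differed by -0.06 and 0.04 against C57BL/6.

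In all, 11 of the 30 tested genes were called in at least 1 pairwise comparison and 19 in none, where 21.0% of all tested genes were called in at least 1. The 19 differed by -0.30 to 0.41 in MRL/MpJ against C57BL/6, by -0.25 to 0.36 in AKR/N against C57BL/6, and by -0.48 to 0.35 in MRL/MpJ against AKR/N. The 95% interval reached 0.13 to 0.62 to each side of the difference over the 30 genes. Among the members, 11 had more than 1 tested probe set. Their 20 further probe sets had the same sign as the one used for 12 in MRL/MpJ against C57BL/6, for 15 in AKR/N against C57BL/6 and for 16 in MRL/MpJ against AKR/N.

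**Figure D3:**
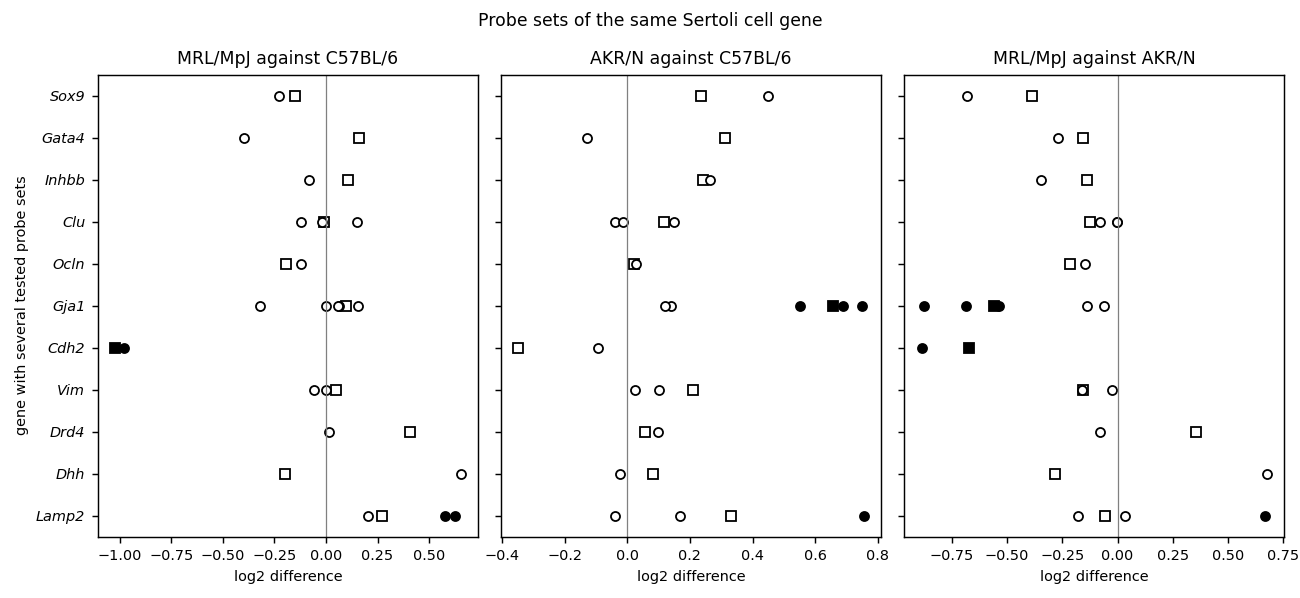
Log2 difference (x axis) of every tested probe set of the 11 Sertoli cell genes with more than 1 (rows), in the 3 comparisons; squares are the probe set of highest mean, circles the others, and filled symbols were called at adjusted p under 0.05. In AKR/N against C57BL/6 the 6 Gja1 probe sets lie between 0.12 and 0.75, and in MRL/MpJ against C57BL/6 both Cdh2 probe sets lie at -1.02 and -0.98.

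Of 13 tested Sertoli cell genes outside the members, 1 rose in MRL/MpJ against C57BL/6. In AKR/N against C57BL/6, 1 rose and 1 fell, and 4 rose in MRL/MpJ against AKR/N. The medians were 0.24, 0.03 and -0.04. For this and the lists that follow, the shares of all tested genes called higher and lower were 6.10% and 6.12% in MRL/MpJ against C57BL/6. They were 6.39% and 5.50% in AKR/N against C57BL/6, and 3.68% and 5.07% in MRL/MpJ against AKR/N. Kitl, the ligand of the Kit receptor of germ cells, was at 215 and 219 units in MRL/MpJ, 73.1 and 63.4 units in AKR/N, and 179 and 226 units in C57BL/6. AKR/N was low without overlap, by -1.37 against C57BL/6, and MRL/MpJ stood above AKR/N by 1.47 (SE 0.131, adjusted p = 8.23e-05). As the mean of the Kitl probe sets the last value was 0.49 (adjusted p = 0.0608). Zfpm2, the cofactor of Gata4, rose by 0.55 in MRL/MpJ (adjusted p = 0.0146) and by 0.67 in AKR/N (adjusted p = 0.00498) against C57BL/6. Ptgds, the prostaglandin D synthase of Sertoli cells, was higher in MRL/MpJ than in AKR/N by 1.06 (adjusted p = 0.00963), with the C57BL/6 arrays apart at 2434 and 1335 units. Plat, tissue plasminogen activator, and Gatm, a creatine synthesis enzyme, were higher in MRL/MpJ than in AKR/N by 0.55 (adjusted p = 0.0347) and 0.44 (adjusted p = 0.044). Except for Kitl, each of these calls was lost without at least 1 array (highest adjusted p over all alternatives 0.181 and 0.0573 for Zfpm2 in MRL/MpJ and AKR/N, 0.153 for Ptgds, 0.179 for Plat and 0.303 for Gatm).

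Of 22 tested junction genes outside the members, 2 rose and 1 fell in MRL/MpJ against C57BL/6, 4 rose in AKR/N against C57BL/6, and 1 fell in MRL/MpJ against AKR/N. The medians were 0.15, 0.10 and -0.01. Called shares over all tested genes were 6.10% higher and 6.12% lower, 6.39% higher, and 5.07% lower, in the same order of comparisons. Nectin2, which pairs with a nectin of the spermatid at the ectoplasmic specialisation, rose by 0.43 in MRL/MpJ (adjusted p = 0.0158) and by 0.66 in AKR/N (SE 0.0942, adjusted p = 0.00143) against C57BL/6. Jam2, a junctional adhesion molecule, rose by 0.56 (adjusted p = 0.00922) and 0.39 (adjusted p = 0.0494). In AKR/N, Ctnna1, alpha-catenin, rose by 0.52 (adjusted p = 0.0076) and F11r, another junctional adhesion molecule, by 0.47 (adjusted p = 0.0412). Cldn3, a claudin that androgen raises in mouse Sertoli cells, was at 38.1 and 13.2 units in MRL/MpJ, 63.9 and 81.7 units in AKR/N, and 78.1 and 85.5 units in C57BL/6. It differed by -1.30 in MRL/MpJ against C57BL/6 (SE 0.257, adjusted p = 0.00922, and 0.0806 without C57BL/6 replicate 2) and by -1.15 in MRL/MpJ against AKR/N (adjusted p = 0.0232, lost without MRL/MpJ replicate 2 or either AKR/N array, at up to 0.182). Apart from Nectin2 in AKR/N, the other calls of this list were each lost without at least 1 array, with a highest adjusted p of 0.11 for Nectin2 in MRL/MpJ, 0.256 and 0.309 for Jam2, 0.265 for Ctnna1 and 0.659 for F11r over all alternatives. Cldn3 was also the 1 called gene of 4 tested androgen-responsive Sertoli genes, of which Eppin, a protease inhibitor, differed by -0.14 and 0.15 against C57BL/6 (adjusted p = 0.344 and 0.343).

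Of 15 tested partners of inhibin, activin, AMH and follicle-stimulating hormone, 2 rose in MRL/MpJ against C57BL/6. In AKR/N against C57BL/6, 1 rose and 1 fell, and 1 rose in MRL/MpJ against AKR/N. Of all tested genes 6.10% rose in the first comparison, 6.39% rose and 5.50% fell in the second, and 3.68% rose in the third. Acvr1, a receptor of the activin and bone morphogenetic protein family, was at 62.4 and 38.8 units in MRL/MpJ, 71.6 and 90.4 units in AKR/N, and 25.4 and 24.4 units in C57BL/6. Its AKR/N difference from C57BL/6 was 1.24 (SE 0.206, adjusted p = 0.00361), against 0.46 as the mean of its probe sets, and the call was lost without AKR/N replicate 2. Tgfbr3, betaglycan, the co-receptor that gives inhibin its hold on activin receptors, rose by 0.46 in MRL/MpJ (adjusted p = 0.0423), and Smad3, which carries the activin signal to the nucleus, by 0.55 (adjusted p = 0.0429). Creb1, the cyclic AMP response factor, fell by 0.47 in AKR/N against C57BL/6 (adjusted p = 0.0424) and rose by 0.69 in MRL/MpJ against AKR/N (adjusted p = 0.00948). The calls of Tgfbr3, Smad3 and Creb1 were each lost without several of the arrays, with a highest adjusted p of 0.21, 0.202 and 0.784 over all alternatives. Creb1 in AKR/N changed sign as the mean of its probe sets (0.08). Amhr2, the AMH receptor, differed by 0.12 and 0.30 against C57BL/6 (adjusted p = 0.445 and 0.0543). Of 8 tested genes of the desert hedgehog pathway 1 fell in MRL/MpJ against C57BL/6, where 6.12% of all tested genes did. That gene was Sufu, an inhibitor of the pathway, lower by 0.30 (adjusted p = 0.0391). The Sufu call was lost without any array but C57BL/6 replicate 2, and limma called 0 of the 8 in the other 2 comparisons, where 1 was lower in each at an unadjusted p under 0.05.

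Of 11 tested cathepsins, cystatins and lysosomal genes outside the members, 4 rose and 1 fell in MRL/MpJ against C57BL/6, and 5 rose and 1 fell in AKR/N against C57BL/6, with medians of 0.24 and 0.25. By limma 0 were called in MRL/MpJ against AKR/N, and 1 was lower at an unadjusted p under 0.05. Over all tested genes 6.10% rose and 6.12% fell in MRL/MpJ, and 6.39% rose and 5.50% fell in AKR/N, against C57BL/6. Ctsb, cathepsin B, was at 584 and 580 units in MRL/MpJ, 569 and 571 units in AKR/N, and 352 and 325 units in C57BL/6. It stood above C57BL/6 by 0.76 in MRL/MpJ (SE 0.08, adjusted p = 0.000186) and 0.73 in AKR/N (adjusted p = 0.000242). Ctsd, cathepsin D, rose by 0.58 in MRL/MpJ (adjusted p = 0.00157) and 0.60 in AKR/N (adjusted p = 0.00129), and both calls held in all alternatives run. Ctsh, cathepsin H, rose by 0.92 and 0.63 (adjusted p = 0.00582 and 0.0379), and Ctsz, cathepsin Z, by 0.65 and 0.60 (adjusted p = 0.0192 and 0.0284). Cstb, the cysteine protease inhibitor cystatin B, rose in AKR/N by 0.60 (adjusted p = 0.0031). With the mean of its probe sets Ctsb differed by 0.40 in AKR/N (adjusted p = 0.0504) and Ctsh by 0.41 in MRL/MpJ, and neither was called. Ctsc, cathepsin C, fell by 0.83 in MRL/MpJ (adjusted p = 0.00496) and 0.52 in AKR/N (adjusted p = 0.0481). The calls of Ctsh and Ctsc in AKR/N and of Ctsz in both strains were lost without 3 or more of the arrays, with a highest adjusted p of 0.165, 0.276, 0.284 and 0.263 over all alternatives. Lysosomes are found in all cells of the testis, and Ctsl, the member among the cathepsins, was called in AKR/N but differed by -0.07 in MRL/MpJ against C57BL/6 (adjusted p = 0.532).

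Some markers of other testis cells differed between the strains as well, chiefly those of Leydig cells, spermatocytes and spermatids. Their part in the Sertoli gene differences was not tested. Leydig cell markers, the steroid-making enzymes, had summed intensities over 5 genes, all above the filter, of 5478 and 5676 units in MRL/MpJ, 5414 and 5938 units in AKR/N, and 3417 and 3321 units in C57BL/6, and 4 of 5 rose in each strain against C57BL/6. Hsd17b3, which makes testosterone, rose by 1.32 in MRL/MpJ and 1.42 in AKR/N. The 32 Sertoli genes together summed to 18489 and 18048 units in MRL/MpJ, 20371 and 20639 units in AKR/N, and 17211 and 17516 units in C57BL/6. The strains did not overlap in that sum, with AKR/N highest. A large part of the gap between MRL/MpJ and C57BL/6 in that sum was Serpina5. Serpina5 was at 1181 and 1113 units in MRL/MpJ, 816 and 902 in AKR/N, and 333 and 326 in C57BL/6. The other Sertoli cell genes, 17 with a probe set, summed to 4543 and 4517 units in MRL/MpJ, 3032 and 2794 units in AKR/N, and 4034 and 2971 units in C57BL/6. AKR/N and C57BL/6 overlapped there. A large part of that sum was Ptgds, at 2654 and 2693 units in MRL/MpJ, 1320 and 1227 in AKR/N, and 2434 and 1335 in C57BL/6. The median difference of that list was 0.03 in AKR/N against C57BL/6 and -0.04 in MRL/MpJ against AKR/N. Spermatocyte markers, over 10 genes, summed to 12733 and 12298 units in MRL/MpJ, 11312 and 10718 units in AKR/N, and 12781 and 12366 units in C57BL/6. AKR/N was the low strain there, 4 of 10 fell in AKR/N against C57BL/6 and 7 of 10 were higher in MRL/MpJ than in AKR/N. Sycp1, of the synaptonemal complex, fell by 1.10 in AKR/N against C57BL/6 (adjusted p = 0.000716). In MRL/MpJ against C57BL/6, 1 spermatocyte marker rose and 2 fell.

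Spermatid markers summed to 46068 and 50914 units in MRL/MpJ, 49256 and 52481 units in AKR/N, and 51617 and 55547 units in C57BL/6. Of 10, 3 fell in MRL/MpJ and 1 rose in AKR/N against C57BL/6, and 4 were lower in MRL/MpJ than in AKR/N. Of 9 spermatogonial markers 1 rose in each comparison, a different gene each time, where 6.10%, 6.39% and 3.68% of all tested genes were called higher. The 7 tested markers each of peritubular cells, macrophages and endothelium, and the 3 of ovarian granulosa cells, had 0 calls by limma in all 3 comparisons. At an unadjusted p under 0.05 these lists held 0 to 2 genes in each comparison. Of 3 tested epididymal markers, Rnase10 differed by -1.58 in MRL/MpJ and by -1.87 in AKR/N against C57BL/6, and its arrays lay between 4.84 and 78.0 units. Lcn5 and Adam7 were not tested, as each passed the 40th percentile on AKR/N replicate 1 alone. On AKR/N replicates 1 and 2 Lcn5 was at 118 and 7.18 units, and Adam7 at 63.4 and 5.46 units. The other epididymal markers with a probe set did not show such a gap. On the same arrays Lcn8 was at 3.36 and 18.6 units, Lcn9 at 10.7 and 7.68 units, and Rnase10 at 12.5 and 4.84 units. Ros1 was at 30.9 and 35.1 units there, and Pax8 at 13.8 and 15.0 units. Whether AKR/N replicate 1 held epididymal RNA was not tested.

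**Figure D4:**
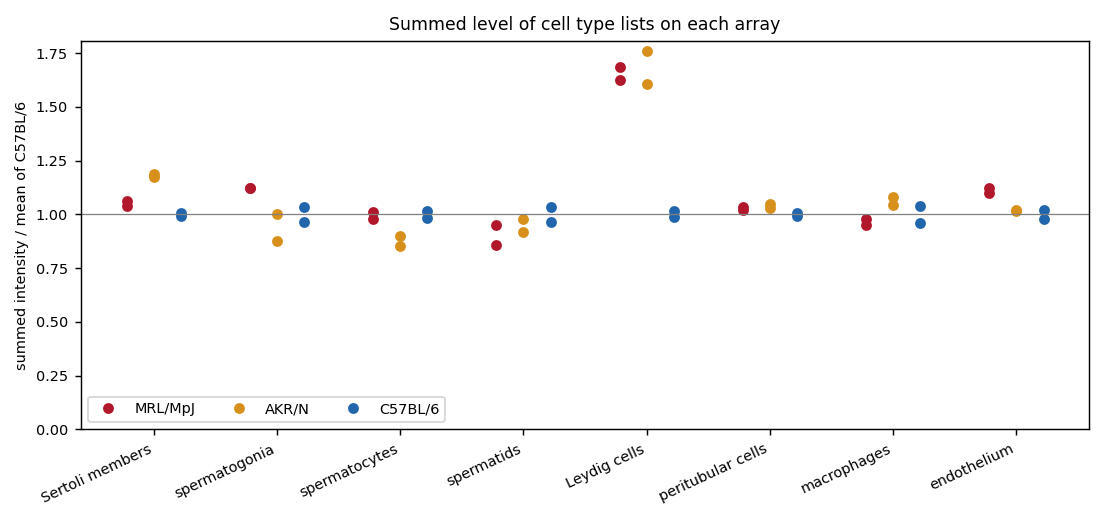
Summed intensity of each cell type list (x axis) on each of the 6 arrays, divided by the mean of the 2 C57BL/6 arrays (y axis, from 0). The epididymal and granulosa lists are not drawn. The Leydig list stands above C57BL/6 in MRL/MpJ and AKR/N, the 32 Sertoli genes are highest in AKR/N, and the spermatocyte list is lowest in AKR/N.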

How the data were processed

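Total RNA of the testis from 6 mice, 2 per strain, was isolated with Trizol, and one-cycle cDNA synthesis preceded labelling with biotin, per the labels' protocols. The authors deposited linear intensity values for 45101 probe sets per array. From the values, all arrays share a trimmed mean of 125.001 units (2% removed at each end), and this scaling was kept. The sources used here do not give the summary software, detection calls or slide and scan batches, and the number of arrays limits the precision. The spread between the 2 arrays of a strain includes that between mice.

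After removal of 64 control probe sets, gene names came from the platform annotation, which gave 34945 probe sets 1 symbol, 932 several symbols and 9160 no symbol. The 29692 tested exceeded the 40th percentile of the array on 2 or more of the 6 arrays. A gene took its probe set of highest mean. Strain means of log2(intensity + 16) of all 6 arrays were modelled in R 4.3.3 using limma 3.58.1 (eBayes with a variance trend after lmFit and contrasts.fit, 3 residual and 7.58 prior degrees of freedom), with Benjamini-Hochberg adjustment over all tested probe sets, and tested on simulated data. Sequences before gene starts came from RefSeq, assembly GRCm38.p6, and were searched with Python 3.11.15. All members are named. Of each other list, up to 4 called genes per comparison with the smallest adjusted p could be named, or the brightest where none was called, and the marker lists are given mainly by counts. The members and lists were chosen with earlier results of these data known. Alternatives changed the normalization, filter, pseudocount, variance trend, probe set choice, arrays and replicate block.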

Additional observations from a re-analysis of the deposited data

How the results depend on the processing

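Among the tested Sertoli genes, 1423 single-gene values under the alternatives kept their side of the threshold, 69 lost a call, 17 gained one and 0 reversed. Most of the 1423 were uncalled values that stayed uncalled, so they say little about how firm the calls were. The 69 losses could come only from the 4, 7 and 8 pairwise calls. Of the other named genes 1 reversed: Creb1 in AKR/N against C57BL/6 was -0.47, but 0.078 where its probe sets were averaged. Without the variance trend the calls were 3 in MRL/MpJ against C57BL/6, 1 in AKR/N against C57BL/6, 0 in MRL/MpJ against AKR/N and 2 in the F test, where limma gave 4, 7, 8 and 10 with it. The pairwise calls kept without it were those of Serpina5, Cdh2 and Mro in MRL/MpJ against C57BL/6 and of Serpina5 in AKR/N against C57BL/6. At an unadjusted p under 0.05, 9 genes remained without the trend in MRL/MpJ against AKR/N. Without the brightness filter AKR/N against C57BL/6 had 4 calls. The calls of Wt1, Rhox5 and Ctsl were lost there at adjusted p of 0.0624 to 0.0725, with differences unchanged at 0.43, 0.38 and 0.23. The cause was not tested. Leaving out 1 array at a time gave 2 to 4 calls in MRL/MpJ against C57BL/6, 3 to 6 in AKR/N against C57BL/6, 2 to 9 in MRL/MpJ against AKR/N and 6 to 10 in the F test. The lowest counts came without MRL/MpJ replicate 1 in the first, without AKR/N replicate 2 in the other 3, and in MRL/MpJ against AKR/N also without MRL/MpJ replicate 2. With 1 array left, a strain's spread was taken from the other strains.

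The strains share replicate numbers, but same-numbered arrays did not deviate together over all tested probe sets (correlations of 0.05, 0.05 and 0.04). Those correlations cannot show whether some genes shared a replicate effect. In each strain the spermatid sum was higher, and the spermatocyte sum lower, on replicate 2 than on replicate 1. With the replicate number as a replicate block, the calls were 4, 9 and 9 in the pairwise comparisons and 12 in the F test. The widest 95% interval, 0.62 to each side, was that of the dim gene Inhba.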
